A study of Mus musculus with 2 samples.

Results

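This report covers 64 genes for protease inhibitors and kallikreins among the 21628 entries of the deposited expression table. They were taken by gene name: 4 stefins (*Stfa*), 9 cystatins (*Cst*), 26 clade B serpins (*Serpinb*), 12 Kazal-type inhibitors (*Spink*) and 13 kallikreins (*Klk*). The rule uses names and no measured value, although it was set with earlier results of these data known. RNAseq profiled cells of newborn (P0) *Sox2GFP* mice, in which GFP reports activity of the *Sox2* gene. Lingual epithelium was peeled from the tongue enzymatically, pooled across pups and dissociated, and cells were sorted by GFP brightness into a bright (SOX2-GFPhigh) and a dim (SOX2-GFPlow) population of about 100000 cells each. The populations are bins of a brightness continuum from mice of 1 genotype and age, and 1 library was sequenced from each. Nothing here could be checked against a replicate, so p-values are left out. The study compared bright cells, which include taste bud cells and the cells around them, with dim cells, a mixture of non-taste epithelium and connective tissue.

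Proteases and their inhibitors are paired in stratified epithelium. Stefins and cystatins block cysteine proteases of the papain type, the cathepsins. Clade B serpins act mostly inside cells, where each traps a serine or cysteine protease by presenting a bait loop, although some members do not inhibit any protease. Kallikreins are secreted serine proteases, and several of them cut the proteins of the desmosomes that hold the outermost keratinocytes together. Spinks carry Kazal domains that block trypsin-like enzymes, and the product of *Spink5* restrains kallikreins in the skin.

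Values are FPKM (fragment counts divided by transcript length and by the total mapped in that library). A gene was called different when it had at least 5 FPKM in the higher population and a ratio of at least 1.5 between populations, which is how the study's results state its rule. Its methods ask for 5 FPKM in each population, under which 6 of the 64 genes would be called higher in GFPhigh and 2 in GFPlow cells. From the spacing of low values, each library rests on roughly 27000000 (GFPhigh) and 35000000 (GFPlow) assigned fragments. At that depth an approximate read number can be given for single genes, but only 61.3% and 67.7% of the low values used lay within 0.15 of a whole read, so the numbers are rough. *Sox2* itself was at 112.3 FPKM in GFPhigh cells and 59.02 FPKM in GFPlow cells. Keratins of basal keratinocytes were abundant in both libraries, *Krt5* at 9667 FPKM in GFPhigh and 10422 FPKM in GFPlow cells. The libraries also differed in their mix of cells. The 10 suprabasal keratinocyte markers summed to 77913 FPKM in GFPhigh and 36173 FPKM in GFPlow cells, and 5 were called higher in GFPhigh cells against 1 lower. All 7 basal keratinocyte markers were higher in GFPlow cells, 1 of them past the limits. The 7 fibroblast markers summed to 411 FPKM in GFPhigh and 1816 FPKM in GFPlow cells, and the 5 Schwann lineage markers to 67.2 and 252 FPKM. The widest ratio among the marker lists was that of the 6 hard keratins of filiform papillae, which summed to 66.7 FPKM in GFPhigh and 1559 FPKM in GFPlow cells, with 5 called higher in GFPlow cells (*Krt84* at 29.11 and 769.41 FPKM). Their part in the results that follow was not tested, and fewer cells of a type cannot be told apart from less RNA per cell.

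Calls among the inhibitors were mostly toward GFPhigh cells, and those among the kallikreins were toward GFPlow cells. Of the 64 genes, 7 were called higher in GFPhigh cells, against a background of 4.72% of the 21590 genes analyzed. These were *Stfa1*, *Stfa3*, *Cst3*, *Serpinb1a*, *Serpinb2*, *Serpinb3a* and *Serpinb12*, all inhibitor genes. A further 3 genes were called higher in GFPlow cells, against a background of 4.44%, and of these *Klk1* and *Klk14* are kallikreins and *Serpinb7* is a serpin. In all, 15.6% of the genes were called in either direction, with 9.16% in the background.

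Most of the 64 genes were weakly expressed, which bears on these shares. In both libraries 12 were listed at 0, and 17 more stayed under 1 FPKM, the highest of them at 0.95 FPKM. The 24 genes with at least 5 FPKM in 1 library could be called at all. Of these, 41.7% were called, compared with 18.4% of the 10760 genes of the table at that level, and 29.2% were called higher in GFPhigh cells, compared with 9.48%. The 3 calls toward GFPlow cells stand against 8.9%. Among the 24, 15 had the higher value in GFPhigh cells and 9 in GFPlow cells. The 16 inhibitor genes at that level gave 7 calls toward GFPhigh and 1 toward GFPlow cells, while the 8 kallikreins gave 0 and 2.

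**Figure D1:**
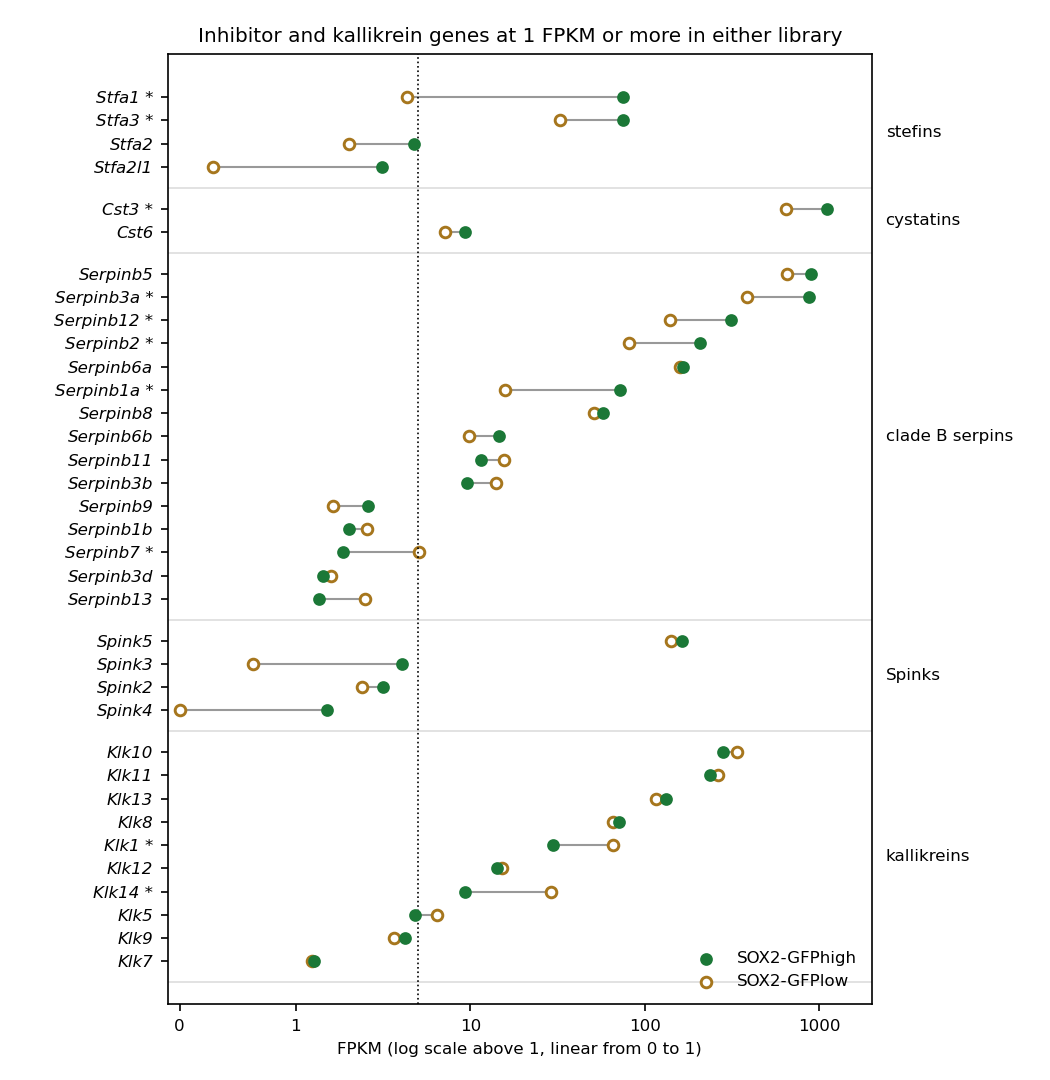
Level of each of the 35 genes with at least 1 FPKM in either library, in FPKM (linear from 0 to 1, log scale above). Filled green points are SOX2-GFPhigh and open brown points SOX2-GFPlow cells, 1 library each, the dotted line marks 5 FPKM and stars mark called genes. The line of *Stfa1* is the longest, all 4 stefins have the green point to the right, and most kallikreins have short lines.

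*Cst3*, *Serpinb5* and *Serpinb3a* had the highest levels of the set in both populations. *Cst3* had 1104 FPKM and rank 93 of all genes in GFPhigh cells, with 650 FPKM and rank 159 in GFPlow cells. *Serpinb5* had 900 FPKM (rank 114) in GFPhigh cells and 658 FPKM (rank 153) in GFPlow cells. *Serpinb3a* had 877 FPKM (rank 121) and 388 FPKM (rank 316). The next places were taken by different families. In GFPhigh cells *Serpinb12* (rank 448) stood ahead of *Klk10* (rank 505) and *Klk11* (rank 642), and in GFPlow cells *Klk10* (rank 378) and *Klk11* (rank 523) stood ahead of *Serpinb6a* (rank 1046) and *Serpinb12* (rank 1255). Without replicates, neighbours in this order cannot be separated.

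Among the 5 families the stefins had the widest ratio of summed FPKM, 158.69 in GFPhigh and 39.2 in GFPlow cells or 4.05-fold, and *Stfa1* the widest ratio of a called gene. Stefins are small cystatins without a secretion signal, which bind cathepsins inside the cell, and mice carry several near copies of the stefin A gene side by side on chromosome 16. *Stfa1* (ENSMUSG00000071562, chr16:36276951-36285373, plus strand) was at 75.53 FPKM in GFPhigh cells and 4.33 FPKM in GFPlow cells, a 17.4-fold difference, or very roughly 1050 against 77 reads. *Stfa3* (ENSMUSG00000054905, chr16:36450537-36455392, minus strand) reached the same level in GFPhigh cells, 75.28 FPKM, but kept 32.57 FPKM in GFPlow cells, a 2.31-fold difference. Both were called. The remaining pair stayed under 5 FPKM and was not called. *Stfa2* had 4.75 FPKM in GFPhigh and 2.01 FPKM in GFPlow cells. *Stfa2l1* had 3.13 FPKM in GFPhigh cells and 0.29 FPKM in GFPlow cells, the latter worth about 2.2 reads, so that no fold is given. All 4 genes were higher in GFPhigh cells, and the median difference in log2(FPKM + 1), GFPhigh minus GFPlow, was 1.43 over the 4, compared with -0.02 over all genes analyzed.

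These genes are so alike that a read of 50 nt cannot always be placed. Read-length windows of *Stfa1* exons were found in another annotated transcript for 22.5% of windows, for 24.6% in *Stfa2l1*, for 15.9% in *Stfa2* and for 0% in *Stfa3*. The coding sequence of *Stfa1* is 97.9% identical to that of *BC100530*, a stefin A gene of the same cluster, and that of *Stfa2* is 96.4% identical to *Stfa2l1*. *Stfa1* and *Stfa3* share 84.5%. The longest identical stretches of both near copies, read from the GENCODE M21 transcripts (mm10), are shown 5′ to 3′ because they decide how far the values of each gene can be trusted. Capitals mark the first 50 nt, the length of 1 read.
Stfa1 and BC100530: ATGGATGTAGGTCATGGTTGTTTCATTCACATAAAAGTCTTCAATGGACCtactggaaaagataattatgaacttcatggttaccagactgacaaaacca
Stfa2 and Stfa2l1: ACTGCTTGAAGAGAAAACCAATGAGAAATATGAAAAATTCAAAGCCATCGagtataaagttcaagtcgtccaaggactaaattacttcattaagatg
The stretch of the first pair spans 100 nt (coding nt 262 to 361 of *Stfa1* and 169 to 268 of *BC100530*), and that of the second pair 97 nt (coding nt 93 to 189 of both). A read that lies within these stretches matches both genes equally. *BC100530* was at 505.94 FPKM in GFPhigh and 63.35 FPKM in GFPlow cells, well above *Stfa1* in each library. Sums over a pair depend less on how shared reads were divided, although the genes differ in length and *Stfa1* and *BC100530* also share windows with *BC117090*. *Stfa1* with *BC100530* came to 581 FPKM in GFPhigh and 67.7 FPKM in GFPlow cells, an 8.59-fold difference, and *Stfa2* with *Stfa2l1* to 7.88 and 2.3 FPKM, a 3.43-fold difference. The direction was the same for each sum as for each gene. The 17.4-fold difference of *Stfa1* alone was thus larger than that of the pair, and *Stfa3*, with no shared window, differed less.

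The direction was shared along the whole stefin locus. Between 36119946 and 36455392 on chromosome 16 (mm10) the table holds 10 stefin and stefin-related genes, and 10 of 10 had the higher FPKM in GFPhigh cells, while 45.6% of all genes above 0 did. Of the 10 genes, 5 were called, beside 9.16% of all genes and 18.4% of those with at least 5 FPKM. The called genes were *Stfa1*, *Stfa3*, *BC100530*, *Csta1* and *BC117090*. *Csta1* was at 296 FPKM in GFPhigh and 88.47 FPKM in GFPlow cells, and *BC117090* at 7.67 and 1.5 FPKM. The rest of the locus stayed under 5 FPKM and could not be called. The other related genes were low. *Gm5483* had 2.09 FPKM in GFPhigh cells and was listed at 0 in GFPlow cells, *Gm5416* had 1.90 and 1.29 FPKM, and *2010005H15Rik* had 1.15 and 0.83 FPKM. The genes of this locus share sequence, so they are not independent of each other. Away from the locus, stefin B (*Cstb*), the widely expressed stefin, was at 647.8 FPKM in GFPhigh and 302.12 FPKM in GFPlow cells, a 2.14-fold difference.

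**Figure D2:**
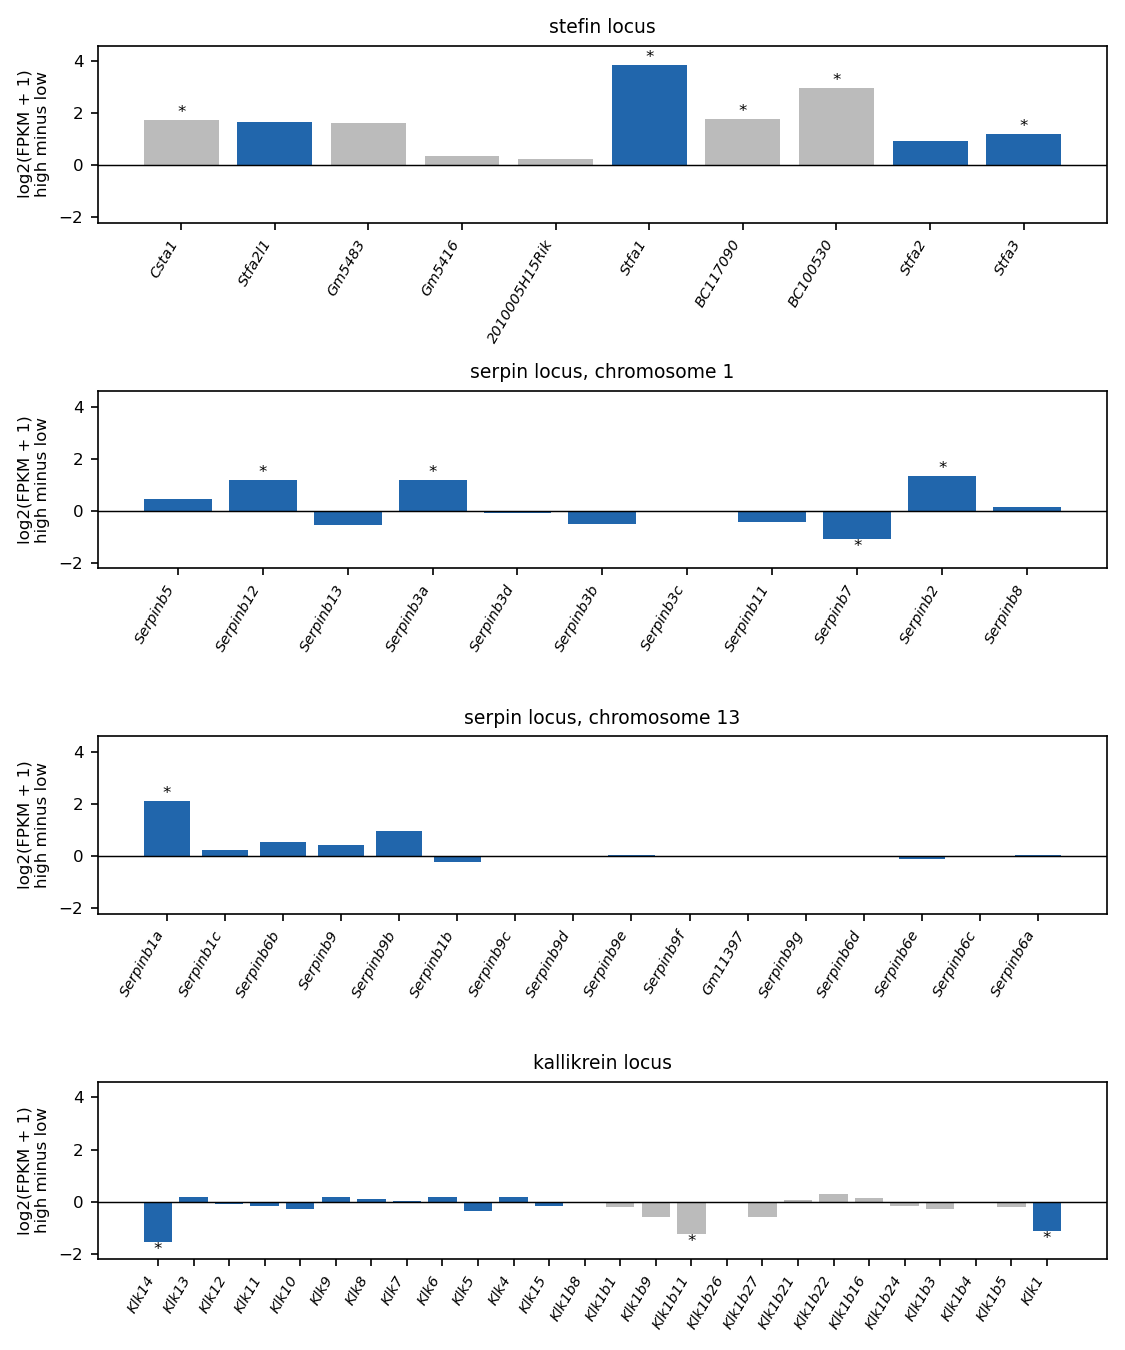
Difference in log2(FPKM + 1), SOX2-GFPhigh minus SOX2-GFPlow, for each gene in chromosome order at 4 loci (evenly spaced, not to scale). Blue bars are genes of the 5 families, grey bars their paralogs at the locus, and stars mark called genes. All 10 bars of the stefin locus point up, while the serpin loci are mixed and 17 of 26 genes of the kallikrein locus were higher in GFPlow cells.

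The starts of the 4 stefin genes were compared because all 4 genes were higher in the same population. The RefSeq promoter windows (GRCm38.p6, 250 nt before to 50 nt after the annotated start, given on the gene's strand) were 79.8% to 92.9% identical between pairs, *Stfa1* being 82.8% identical to *Stfa3*. Capitals mark the 7 runs of at least 10 nt that all 4 windows hold in the same order, 88 nt in all.
Stfa1 (chr16:36276898-36277197, plus strand): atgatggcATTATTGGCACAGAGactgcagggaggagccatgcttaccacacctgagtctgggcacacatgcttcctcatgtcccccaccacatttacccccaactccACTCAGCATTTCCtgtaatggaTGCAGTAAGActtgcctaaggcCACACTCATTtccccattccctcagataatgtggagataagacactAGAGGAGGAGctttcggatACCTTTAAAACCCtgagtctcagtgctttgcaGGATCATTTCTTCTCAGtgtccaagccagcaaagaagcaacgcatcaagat
Stfa3 (chr16:36455343-36455642, minus strand): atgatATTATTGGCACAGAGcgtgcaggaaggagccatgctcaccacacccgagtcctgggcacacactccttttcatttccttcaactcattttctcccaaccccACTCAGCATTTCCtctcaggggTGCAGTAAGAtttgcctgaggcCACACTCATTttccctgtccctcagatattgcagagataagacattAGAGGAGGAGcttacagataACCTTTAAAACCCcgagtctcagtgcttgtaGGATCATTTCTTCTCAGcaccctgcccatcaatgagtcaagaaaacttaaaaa
Stfa2 (chr16:36408314-36408613, minus strand): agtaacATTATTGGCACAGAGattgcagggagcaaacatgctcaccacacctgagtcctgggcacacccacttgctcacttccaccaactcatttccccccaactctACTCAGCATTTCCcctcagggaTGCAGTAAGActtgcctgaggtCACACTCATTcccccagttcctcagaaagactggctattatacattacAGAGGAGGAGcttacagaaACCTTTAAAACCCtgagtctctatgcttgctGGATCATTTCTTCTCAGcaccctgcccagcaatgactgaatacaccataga
Stfa2l1 (chr16:36156561-36156860, plus strand): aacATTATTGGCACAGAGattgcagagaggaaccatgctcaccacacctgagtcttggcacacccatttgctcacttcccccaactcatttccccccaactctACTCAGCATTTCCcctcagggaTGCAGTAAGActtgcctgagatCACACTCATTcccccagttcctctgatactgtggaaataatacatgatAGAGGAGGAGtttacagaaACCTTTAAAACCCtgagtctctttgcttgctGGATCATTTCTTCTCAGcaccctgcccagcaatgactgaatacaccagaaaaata
The longest run, ggatcatttcttctcag, lies at the start itself and occurs in 6 of 32851 RefSeq promoter windows of the mouse (either strand), the other 2 belonging to the stefin genes *Csta3* and *Cstdc5*. The run acctttaaaaccc, about 30 nt upstream in each gene, was found in 9 windows. A match in sequence describes these windows only. Its part in the 17.4-fold and 2.31-fold differences of *Stfa1* and *Stfa3* was not tested.

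Among the cystatins proper, 1 gene held nearly all expression. *Cst3* encodes cystatin C, a secreted inhibitor of cathepsins made by most cells. It was at 1104.14 FPKM in GFPhigh cells and 650.22 FPKM in GFPlow cells, a 1.70-fold difference that was called. *Cst3* made up 99.1% of the summed cystatin FPKM in GFPhigh and 98.9% in GFPlow cells. *Cst6*, cystatin M/E, which controls legumain and cathepsins during cornification of skin, had 9.38 and 7.18 FPKM, a ratio of 1.31 that was not called. The cystatins of the male reproductive tract, *Cst8*, *Cst9*, *Cst11*, *Cst12* and *Cst13*, were listed at 0 in both libraries. *Cst7*, the leukocyte cystatin, had 0.09 FPKM in GFPhigh cells and 0 in GFPlow cells, and *Cst10* had 0 and 0.05 FPKM. The median difference in log2(FPKM + 1) over the 4 cystatins above 0 was 0.23.

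The proteases that these inhibitors bind did not move past the limits. Of 11 cysteine cathepsin and legumain genes, 8 had at least 5 FPKM and 0 of 11 were called in either direction. Of all genes at that level 18.4% were called, and with 8 genes the lack of calls cannot be told apart from that share. *Ctsh* was the highest, at 138.68 FPKM in GFPhigh and 121.67 FPKM in GFPlow cells, followed by *Ctsb* at 110.42 and 90.78 FPKM, *Ctsc* at 83.62 and 62.98 FPKM and *Ctsl* at 82.50 and 91.84 FPKM. Summed over the 11 genes, GFPhigh cells had 509 FPKM and GFPlow cells 472 FPKM, a ratio of 1.08. Stefins and cystatins of the 64 genes summed to 2.50 times this total in GFPhigh cells and 1.47 times in GFPlow cells. The 4 stefins and the 9 measured stefin relatives, *Cstb* among them, summed to 3.18 times the cathepsin total in GFPhigh cells and 1.05 times in GFPlow cells. These are ratios of transcript levels, not of protein or activity.

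**Figure D3:**
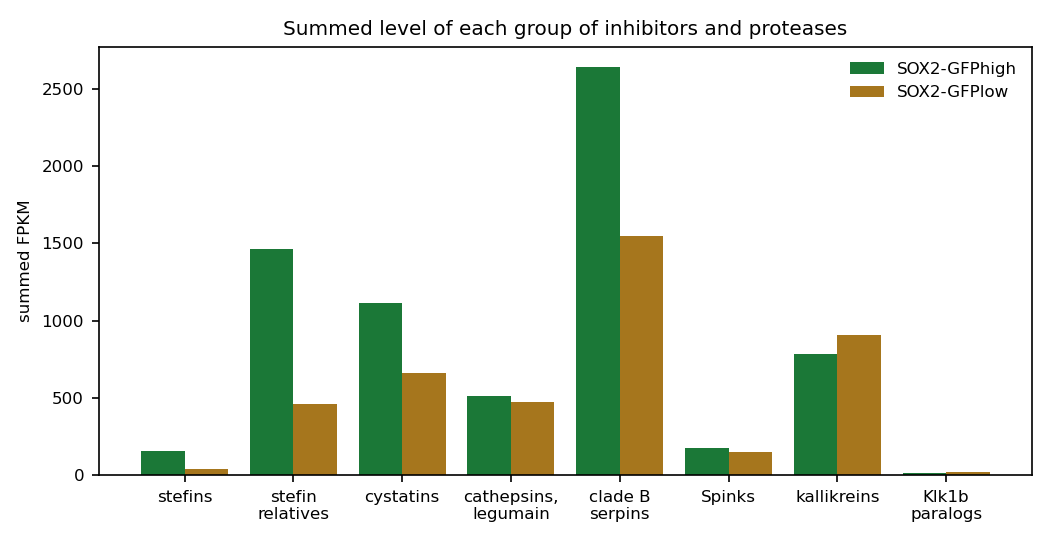
Summed FPKM of each group of inhibitors and proteases in SOX2-GFPhigh (green) and SOX2-GFPlow (brown) cells, 1 library each, without error bars because there is no replicate. Clade B serpins sum to 2639 and 1545 FPKM and stefin relatives to 1463 and 458 FPKM, while cathepsins with legumain (509 and 472 FPKM) and kallikreins (787 and 909 FPKM) differ less.

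The clade B serpins were the most abundant family. Their summed FPKM was 2639 in GFPhigh and 1545 in GFPlow cells, a 1.71-fold difference. *Serpinb5* held 34.1% of it in GFPhigh and 42.6% in GFPlow cells. Of the 26 genes, 11 had at least 5 FPKM, 4 were called higher in GFPhigh and 1 in GFPlow cells, beside 9.48% and 8.9% of all genes at that level. The median difference in log2(FPKM + 1) was only 0.03 over the serpins above 0, and -0.03 when each library was divided by its FPKM sum, so the family total rests on a few abundant genes.

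At the serpin locus of chromosome 1 (chr1:106861173-107610484), 11 genes were measured, and 5 were higher in GFPhigh and 6 in GFPlow cells. The called genes toward GFPhigh lie apart from each other in this order. *Serpinb12*, a serpin that inhibits trypsin-like proteases, was at 312.76 FPKM in GFPhigh and 138.92 FPKM in GFPlow cells, a 2.25-fold difference. *Serpinb2*, which encodes the intracellular and secreted inhibitor of urokinase, was at 208.14 and 81.02 FPKM, a 2.57-fold difference. The gene overlaps *Serpinb10* on the same strand, and 10.4% of its windows are shared. *Serpinb3a*, a mouse relative of the human squamous cell carcinoma antigens, was at 876.68 and 387.52 FPKM, a 2.26-fold difference.

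The neighbours of *Serpinb3a* behaved differently from it. *Serpinb3b* had 9.55 FPKM in GFPhigh and 13.97 FPKM in GFPlow cells, a ratio of 1.46 toward GFPlow cells that was not called. *Serpinb3d* had 1.44 and 1.60 FPKM, and *Serpinb3c* 0.26 and 0.29 FPKM. *Serpinb3a* was 91.8 times as high as *Serpinb3b* in GFPhigh cells and 27.7 times in GFPlow cells. The genes share 93.1% of their coding sequence, and 15% of the windows of *Serpinb3a* and 14.7% of those of *Serpinb3b* are found in other transcripts. How reads were divided between the abundant copy and the rare ones was not tested. The longest stretch that both coding sequences share runs over 76 nt (coding nt 73 to 148 of each), with the first 50 nt in capitals.
Serpinb3a and Serpinb3b: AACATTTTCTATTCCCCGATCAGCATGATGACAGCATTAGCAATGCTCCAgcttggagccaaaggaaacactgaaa
The summed level of *Serpinb3a* to *Serpinb3d* was 888 FPKM in GFPhigh and 403 FPKM in GFPlow cells, a 2.2-fold difference close to that of *Serpinb3a*. The promoter windows of *Serpinb3a* and *Serpinb3b* were 93.1% identical over 276 aligned nt, and are shown because genes so alike upstream differed so widely in level. Capitals mark TATAAA, searched on both strands.
Serpinb3a (chr1:107052254-107052553, minus strand): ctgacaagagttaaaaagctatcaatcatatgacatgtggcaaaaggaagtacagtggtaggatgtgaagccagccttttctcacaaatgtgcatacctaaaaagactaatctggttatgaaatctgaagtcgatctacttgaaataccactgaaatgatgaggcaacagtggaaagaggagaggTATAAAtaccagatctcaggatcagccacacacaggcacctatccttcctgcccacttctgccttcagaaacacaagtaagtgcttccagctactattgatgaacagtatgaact
Serpinb3b (chr1:107161065-107161364, minus strand): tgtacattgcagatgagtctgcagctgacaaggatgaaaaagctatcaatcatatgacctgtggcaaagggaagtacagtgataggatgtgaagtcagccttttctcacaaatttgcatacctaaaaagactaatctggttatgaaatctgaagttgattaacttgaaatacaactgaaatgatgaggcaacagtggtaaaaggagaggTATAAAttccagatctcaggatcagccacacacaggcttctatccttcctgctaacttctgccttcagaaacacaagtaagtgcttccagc
The motif starts at position -65 from the annotated start in *Serpinb3a* and at -41 in *Serpinb3b*. The sequences around it are offset by the same distance, so the annotated RefSeq starts themselves differ. In GENCODE M21 *Serpinb3b* spans chr1:107153940-107278361 and overlaps *Serpinb3c* on the same strand, so it reaches far upstream of the window shown.

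Among the other serpins of chromosome 1 only *Serpinb7* was called, toward GFPlow cells. *Serpinb5*, maspin, a serpin that does not inhibit proteases, was at 899.70 FPKM in GFPhigh and 658.19 FPKM in GFPlow cells, a ratio of 1.37 under the limit. *Serpinb8*, an inhibitor of furin, had 57.64 and 51.58 FPKM. *Serpinb11* had 11.47 FPKM in GFPhigh and 15.61 FPKM in GFPlow cells. *Serpinb7*, megsin, whose loss in humans causes a palmoplantar keratoderma, was at 1.87 FPKM in GFPhigh cells and 5.09 FPKM in GFPlow cells, a 2.72-fold difference. It was called, but only just passed the 5 FPKM limit. *Serpinb13*, which inhibits cathepsins, had 1.36 and 2.49 FPKM and stayed under it.

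At the serpin locus of chromosome 13 (chr13:32842092-34002794), expression was concentrated in 3 of the 15 serpins of the set. *Serpinb1a*, an inhibitor of neutrophil elastase, cathepsin G and proteinase 3, was at 72.45 FPKM in GFPhigh and 15.89 FPKM in GFPlow cells, a 4.56-fold difference and the widest among the called serpins. Only 2.81% of its windows are shared. Its near copies were low, *Serpinb1b* at 2.01 and 2.56 FPKM and *Serpinb1c* at 0.20 and 0.03 FPKM, and the sum of the 3 genes differed 4.04-fold. *Serpinb6a*, an inhibitor of cathepsin G, was nearly level at 165.25 and 158.51 FPKM, and its direction turned when libraries were divided by their FPKM sum. Exons of other genes on the opposite strand cover much of this gene, so that 25.1% of its windows are found in other transcripts when strand is ignored and 0.751% when it is kept. *Serpinb6b*, which inhibits granzyme A, had 14.62 and 9.85 FPKM, a ratio of 1.48 just under the limit.

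The rest of that locus was low. *Serpinb9*, the granzyme B inhibitor, had 2.60 FPKM in GFPhigh and 1.64 FPKM in GFPlow cells. *Serpinb9b* had 0.95 FPKM in GFPhigh cells, about 81.6 reads, and 0.01 FPKM in GFPlow cells, about 1.1 reads, the smallest value that the rounding to 2 decimals can show. Rounding alone lets their ratio lie anywhere from 63 to 191. *Serpinb9c* to *Serpinb9g* and *Serpinb6c* to *Serpinb6e* were each at 0.37 FPKM or less in both libraries, and *Serpinb9d*, *Serpinb9f* and *Serpinb9g* were listed at 0 in both.

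The listed serine proteases of neutrophils and lymphocytes were nearly absent, and mast cell proteases were not part of that list. None of 6 neutrophil and lymphocyte serine protease genes reached 5 FPKM, and *Prtn3*, proteinase 3, was the highest at 2.38 FPKM in GFPhigh and 0.77 FPKM in GFPlow cells. The 10 neutrophil markers summed to 1.89 FPKM in GFPhigh and 0.98 FPKM in GFPlow cells, with *Camp*, *Retnlg* and *Mmp8* at 0 in both. Stefins are also known from neutrophils, and the part of neutrophils in the stefin values was not tested. The 6 mast cell markers summed to 59.6 FPKM in GFPhigh and 31.6 FPKM in GFPlow cells. Of them 3 were called higher in GFPhigh cells, beside 4.72% of all genes. These were *Cpa3* (5.89 and 0.99 FPKM), *Mcpt4* (7.11 and 1.20 FPKM) and *Tpsb2* (10.65 and 2.35 FPKM). *Cma1* had 4.55 and 0.80 FPKM, *Kit* differed little at 31.38 and 26.22 FPKM, and *Ms4a2* was at 0 and 0.01 FPKM. Macrophage markers summed to 19.0 and 22.3 FPKM, and none was called. The part of mast cells in any value here was not tested.

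Of the 12 Spinks, 1 was abundant. *Spink5* encodes LEKTI, whose loss causes Netherton syndrome, a disease of unrestrained kallikrein activity in skin. It was at 164.02 FPKM in GFPhigh and 141.72 FPKM in GFPlow cells, a ratio of 1.16 that was not called. *Spink5* held 94.5% of the Spink FPKM in GFPhigh and 97.1% in GFPlow cells. No Spink was called, but only *Spink5* had at least 5 FPKM, so none of the others could be. Of all genes at that level 18.4% were called, and 1 gene cannot be set against that share. *Spink3*, the pancreatic trypsin inhibitor, had 4.07 FPKM in GFPhigh and 0.63 FPKM in GFPlow cells, roughly 58.7 against 11.6 reads, a 6.46-fold difference under the 5 FPKM limit. *Spink2*, known from testis, had 3.15 and 2.39 FPKM. *Spink4*, known from goblet cells of the gut, had 1.51 FPKM in GFPhigh cells, about 11.4 reads, and was listed at 0 in GFPlow cells. *Spink7*, known from esophageal epithelium, was listed at 0 in GFPhigh cells and had 0.83 FPKM in GFPlow cells, about 9.8 reads. *Spink10*, which overlaps *Spink7* on the opposite strand, had 0.56 and 0.17 FPKM. *Spink8*, *Spink11*, *Spink12* and *Spink13* were listed at 0 in both libraries, and *Spink6* and *Spink14* were at 0.20 FPKM or less in both. Apart from *Spink5*, each Spink value rests on at most about 123 reads.

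The kallikreins had a slightly higher sum in GFPlow cells, while their median difference was small. Their summed FPKM was 787 in GFPhigh and 909 in GFPlow cells, 1.16 times as much in the latter. The median difference in log2(FPKM + 1), GFPhigh minus GFPlow, was -0.08 over the 13 genes, compared with -0.02 over all genes. Without *Klk1* the sums were 757 and 843 FPKM, and the median difference was -0.03. All 13 lie in 1 cluster on chromosome 7 (chr7:43690418-44229618) together with 13 *Klk1b* paralogs, and of the 26 genes 9 were higher in GFPhigh and 17 in GFPlow cells. That is 34.6% higher in GFPhigh cells, beside 45.6% of all genes above 0. Of the 13 *Klk1b* genes in this count, 10 stayed under 1 FPKM in both libraries.

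The abundant kallikreins differed little. *Klk10* was at 281.88 FPKM in GFPhigh and 339.93 FPKM in GFPlow cells, and *Klk11* at 236.32 and 264.55 FPKM. *Klk13* went the other way, at 132.65 and 116.75 FPKM. *Klk8*, neuropsin, a kallikrein of brain and skin, was at 71.24 and 65.73 FPKM, although 21.7% of its windows are also covered by an antisense transcript. *Klk12* had 14.33 and 15.26 FPKM. The ratios of these 5 genes ranged from 1.06 to 1.21 in either direction, under the limit of 1.5.

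The called kallikreins lie at opposite ends of the cluster. *Klk14* (ENSMUSG00000044737, chr7:43690418-43695536, plus strand) encodes a trypsin-like kallikrein that takes part in shedding of the skin surface. It was at 9.32 FPKM in GFPhigh cells and 28.97 FPKM in GFPlow cells, a 3.11-fold difference toward GFPlow cells, or roughly 272 against 1078 reads. An antisense transcript, *2310002F09Rik*, covers part of its exons, and 21% of windows are found in other transcripts when strand is ignored but 0.427% when it is kept. The library kit marked strand, but whether counting used it is not given in the sources used here. *Klk1* (ENSMUSG00000063903, chr7:44225360-44229618, plus strand) encodes tissue kallikrein, which releases kinins and is known from salivary glands. It was at 29.87 FPKM in GFPhigh and 65.97 FPKM in GFPlow cells, a 2.21-fold difference toward GFPlow cells.

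*Klk1* also has near copies, and 24% of its windows are found in other transcripts, among them those of the *Klk1b* genes, a family of their own in mice. Of the 13 *Klk1b* genes, 1 was called, or 7.69% beside 9.16% of all genes. *Klk1b11* was at 3.19 FPKM in GFPhigh and 8.89 FPKM in GFPlow cells, the same direction as *Klk1*. The genes share windows, so these 2 values are not independent. *Klk1b22* had 5.27 and 4.07 FPKM. The longest coding stretch that *Klk1* shares with *Klk1b11* spans 103 nt (coding nt 5 to 107 of both) and is given with the first 50 nt in capitals.
Klk1 and Klk1b11: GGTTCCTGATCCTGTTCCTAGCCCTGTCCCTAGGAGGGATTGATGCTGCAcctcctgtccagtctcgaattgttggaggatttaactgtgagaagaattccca
*Klk1* with all 13 *Klk1b* genes summed to 40.1 FPKM in GFPhigh and 83.0 FPKM in GFPlow cells, 2.07 times as much in GFPlow cells, the same direction as *Klk1* alone. Salivary and lingual gland markers were at most 3.21 FPKM (*Amy1*, 2.75 FPKM in GFPhigh cells), so none of the 7 measured could be called. Of them 4 were listed at 0 in both libraries. The part of gland cells in the *Klk1* values was not tested.

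The kallikreins that LEKTI restrains were low next to it. *Klk5*, which activates other kallikreins, had 4.82 FPKM in GFPhigh and 6.43 FPKM in GFPlow cells. *Klk7*, the chymotryptic enzyme of the stratum corneum, had 1.27 and 1.24 FPKM, and its direction turned when libraries were divided by their FPKM sum. With *Klk14*, these 3 proteases summed to 15.4 FPKM in GFPhigh and 36.6 FPKM in GFPlow cells, 2.38 times as much in GFPlow cells, of which *Klk14* held 60.5% and 79.1%. *Spink5* was 10.6 times as high as this sum in GFPhigh cells and 3.87 times as high in GFPlow cells. Between populations *Klk14* differed 3.11-fold and *Spink5* 1.16-fold. The remaining kallikreins were low in both libraries. *Klk9* had 4.25 and 3.66 FPKM, *Klk4*, the enamel protease, 0.36 and 0.21 FPKM, *Klk6* 0.28 and 0.12 FPKM, and *Klk15* 0 and 0.11 FPKM.

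**Figure D4:**
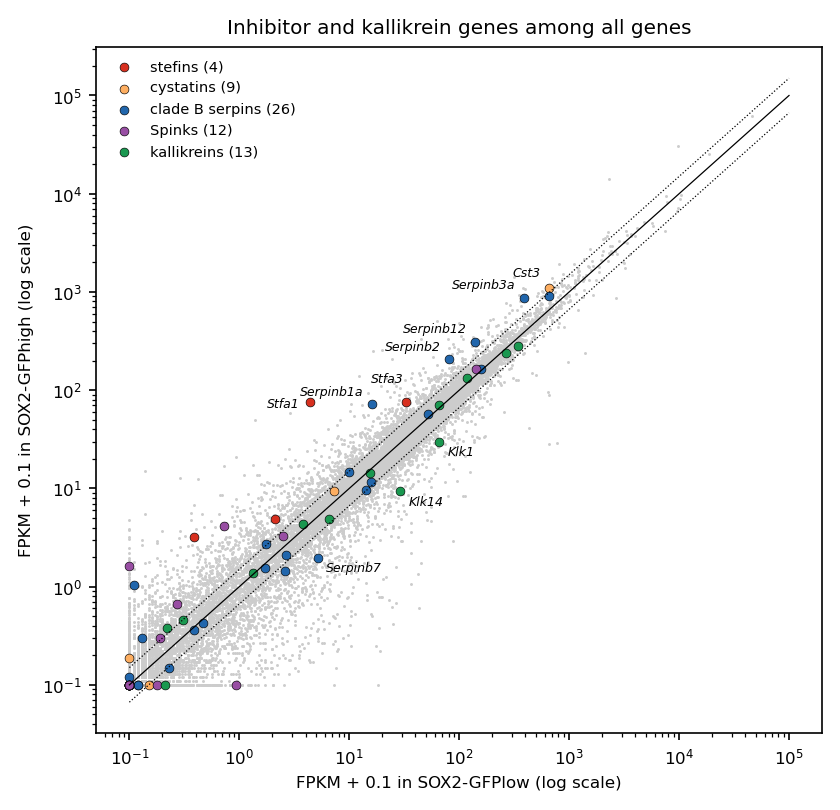
FPKM + 0.1 in SOX2-GFPlow (x) against SOX2-GFPhigh (y) cells, both on log scales, for all genes (grey) and the 64 genes by family (coloured). The solid line marks equal values, dotted lines a ratio of 1.5, and called genes are named. *Stfa1* and *Serpinb1a* lie farthest above the line among called genes (17.4-fold and 4.56-fold), and *Klk14* farthest below it (3.11-fold).

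Substrates of the kallikreins did not share one direction. Of 6 genes for desmosomal substrates and the kallikrein-activated receptor, *Dsg1a*, a desmoglein 1 gene, was called higher in GFPhigh cells, at 344.84 against 133.37 FPKM. Its paralogs *Dsg1b* (66.22 and 48.81 FPKM) and *Dsg1c* (0.43 and 0.16 FPKM) were not called. How reads were divided among these paralogs was not tested. *Cdsn*, corneodesmosin, was called higher in GFPlow cells, at 2.36 FPKM in GFPhigh and 6.31 FPKM in GFPlow cells, and so was *Dsc1*, desmocollin 1, at 18.63 and 28.99 FPKM. The receptor gene *F2rl1* had 52.23 and 40.23 FPKM and was not called.

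Membrane-bound serine proteases of the epithelium were called mostly toward GFPhigh cells, and the difference from the kallikreins was not tested. Of 15 such genes, counted together with the plasminogen activators and their receptor, 14 had at least 5 FPKM, 6 were called higher in GFPhigh and 1 in GFPlow cells, beside 9.48% and 8.9% of all genes at that level. *Tmprss11b* was at 126.11 FPKM in GFPhigh and 25.12 FPKM in GFPlow cells, *Prss8*, prostasin, at 21.33 and 10.42 FPKM, *Hpn*, hepsin, at 26.04 and 13.31 FPKM, *Tmprss2* at 17.92 and 7.72 FPKM, and *Tmprss11f* at 6.27 and 1.14 FPKM. *Tmprss11d* was the call toward GFPlow cells, at 31.48 and 57.86 FPKM. The most abundant, *Tmprss11a*, was at 491.62 and 604.46 FPKM and was not called, and the summed level of the list differed by a ratio of only 1.07. *Plau*, which encodes urokinase, the protease that the *Serpinb2* product inhibits, was at 47.21 and 44.38 FPKM, while its receptor gene *Plaur* was called higher in GFPhigh cells, at 41.62 and 19.86 FPKM.

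Inhibitors and serpins of other families, not each of which need inhibit a protease, were called in both directions. Of 15 measured genes, 11 had at least 5 FPKM, 2 were called higher in GFPhigh and 5 in GFPlow cells, beside 9.48% and 8.9% of all genes at that level. *Spint1*, an inhibitor of matriptase and hepsin, was at 191.22 FPKM in GFPhigh and 88.50 FPKM in GFPlow cells, and *Wfdc5* at 18.69 and 11.94 FPKM. Toward GFPlow cells were *Wfdc2* (149.86 and 456.68 FPKM), *Slpi*, the leukocyte elastase inhibitor of secretions (27.21 and 65.21 FPKM), and *Wfdc12* (5.46 and 20.63 FPKM). *Serpine2* (12.35 and 48.16 FPKM) and *Serpinf1* (9.89 and 19.68 FPKM), serpins outside clade B, were also called toward GFPlow cells. Among cell markers, 5 of 7 for fibroblasts and 4 of 5 for the Schwann lineage were called that way, beside 4.44% of all genes. The fibroblast marker *Twist2* went the other way, at 2.27 and 0.50 FPKM. The part of these cells in the values of these inhibitors and serpins was not tested.

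Searched over the 59 RefSeq promoter windows of the 49 genes that had one, TATAAA was found in 22.0% of windows, compared with 13.6% of all 32851 windows. The AP-1 motif TGANTCA was found in 16.9% and 7.81%. The SOX motif ACAATG was in 8.47% of windows and in 12.6% of all windows, and the FOX motif TGTTTAC in 0 of the 59 and in 3.65% of all windows. Both strands were searched, the windows of neighbouring paralogs resemble each other, and these shares describe letters in the windows and not binding.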

How the data were processed

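Each population was profiled as 1 library of single-end reads of 50 nt, labelled as about 75000000 reads. The authors trimmed reads with Trimmomatic 0.36, mapped them to mm10 with GSNAP, computed FPKM with Cufflinks 2.2.1 and deposited FPKM rounded to 2 decimals. A filter for protein-coding genes is stated, although GENCODE M21 types 21 of the deposited entries otherwise. Multi-mapped read handling and strand settings are not given in the sources used here. The FPKM columns are named means but each was read as 1 library. A deposited fold column, which holds the authors' own comparison, was not used.

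Members and gene lists were chosen with earlier results of these data known. All genes of the 5 families with at least 1 FPKM in a library were named. From the lists, called genes, up to 4 of the highest and paralogs beside members were named, together with the list genes that a result turned on, which were chosen after their values were seen. No test was possible with 1 library per population, so ratios of deposited FPKM were called at 5 FPKM in the higher library and 1.5-fold. Entries lacking a number in at least 1 library (17) or typed as non-coding (21) were left out, leaving 21590. Analyses used Python 3.11.15 with pandas 2.3.3, numpy 2.4.6 and Biopython 1.88. The calling step was run on simulated data with planted changes and an assumed noise. That checks the step itself and gives no error rate for calls from 1 library per population. Positions and coding sequences came from GENCODE M21 and promoter windows from RefSeq (GRCm38.p6). Shared windows were sought among annotated transcripts of both strands. Depth was estimated from FPKM multiplied by exon length less 200 nt. Alternatives were other FPKM and fold limits, pseudocounts of 1 and 0.1, scaling to the FPKM sum (TPM) or the median ratio, and leaving out genes with 20% or more shared windows.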

Additional observations from a re-analysis of the deposited data

How the results depend on the processing

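The count of 7 genes called higher in GFPhigh cells ranged from 6 to 8 under a minimum of 5 FPKM in both libraries, a minimum of 10 FPKM, a 2-fold limit, pseudocounts of 1 and 0.1, both scalings and removal of genes with 20% or more shared windows. It became 12 with a minimum of 1 FPKM and 20 with no minimum. The count of 3 genes called higher in GFPlow cells ranged from 2 to 4 under these alternatives and the 1 FPKM minimum, and became 11 with no minimum. The genes that a lower minimum adds are weak ones. Dividing each library by its FPKM sum shifted all log2 ratios by -0.10, turned the direction of *Serpinb6a* and *Klk7* and added a call for *Serpinb3b* toward GFPlow cells. Scaling by the median ratio (0.973) added *Serpinb6b* toward GFPhigh cells and put *Serpinb7* under 5 FPKM.

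No paired analysis was possible because each population has 1 library and no test was made. Depth limits the low values: about 3 reads or fewer lay behind 3 of the 64 genes in GFPhigh and 8 in GFPlow cells that were above 0.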
